A study of Homo sapiens with 8 samples.

Results

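The ERBB receptors are EGFR, ERBB2, ERBB3 and ERBB4, and together with the ligands NRG1, NRG4, AREG, EREG, HBEGF and TGFA they formed a list of 10 genes whose transcripts were followed in DU145 cells kept in the organochlorine insecticide Aldrin. Members were the probe sets whose annotation on the array names 1 gene only, that gene being on the list, and every such probe set was kept. A probe set is a group of short oligonucleotides on the array that together report 1 transcript target. This gave 39 probe sets of 9 genes, of 49293 probe sets tested, with 19 for the 4 receptors and 20 for the ligands. No probe set was named here for AREG, which was not analysed here. The genes were selected on their exposed against Non-exposed differences in these same arrays, so that contrast is described for them and not tested.

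DU145 is an established human prostate cancer line. Aldrin-exposed cells (4 arrays) had been grown with 1 µM Aldrin, renewed at each passage over 50 days, with 0.01% DMSO as the carrier, and Non-exposed cells (4 arrays) are labelled as non-treated, the presence of DMSO not being stated for them. Both groups are of 1 line, and nothing says that the replicates were separate cultures, so standard deviations and p-values measure the spread between these samples, which may be technical. Total RNA of a whole culture was hybridised as biotinylated cRNA, so fewer cells with a transcript and less of it per cell cannot be told apart. Values are log2 intensities, on which a difference of 1 is a doubling.

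The ERBB receptors are tyrosine kinases of the cell surface that pair up when an EGF-like ligand binds and then signal through the RAS, ERK and PI3-kinase routes. ERBB2 has no known ligand of its own and acts as the partner of the others, while ERBB3 binds neuregulins but has little kinase activity. The ligands are made as membrane precursors that sheddases release, and in epithelia, the prostate included, they act on the cell that makes them and on its neighbours.

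The 8 arrays correlated at 0.983 to 0.997. Epithelial markers were present, with KRT8, KRT18, KRT7, EPCAM and CDH1 well measured and only KRT5 dim, that is, with a mean below the 25th percentile of all probe sets (5.87), where an array hardly separates a transcript from background. Of the prostate luminal and androgen markers measured, KLK3 was dim and KLK2 and TMPRSS2 were not. Dim as well were 3 of 4 leukocyte and 3 of 4 fibroblast markers, 1 of 3 neuroendocrine and 0 of 3 endothelial markers. The level is a rank and not a detection limit, and the endothelial markers lay above it at 6.54 to 7.75. A probe set that was not dim was therefore not shown to be detected. All 6 epithelial markers had a lower mean in exposed cells, with differences of -0.46 for CDH1 to -0.04 for KRT5, whose part in the results was not tested. An index of GC-dependent background, the mean of control probe sets rich in G and C minus that of those poor in them, was 5.88 ± 0.30 in exposed and 6.05 ± 0.27 in Non-exposed arrays (SD, n = 4 each; exact permutation test, two-sided, p = 0.429). With the index as a term in the fit, the differences of the ERBB probe sets moved by -0.17 to 0.13 and 10 of the 39 changed sign, each of them a difference of no more than 0.13. Beyond this the part of the index in the results was not tested. Exposed replicate 2 stood apart in its hybridisation controls, at 12.51 against 11.43 to 11.82 on the other arrays, and in the difference between the 3′ and 5′ control probe sets of ACTB, a sign of RNA quality, at 0.45 against 0.16 to 0.28. In the same difference for GAPDH it did not stand apart, at 0.62 against 0.39 to 0.65.

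NRG4 stood out on the lower side, while the median size of the differences over the 39 probe sets was close to that over all probe sets. Of the 39 probe sets, 20 had a lower and 19 a higher mean in exposed cells. Among them 8 were dim, where a small difference says little about the transcript. Over all probe sets 51.8% had the lower mean in exposed cells. In limma with Benjamini-Hochberg adjustment, 1 of all 49293 probe sets (0.00203%) was past an adjusted p of 0.05. In 2 of the 39 (5.13%) the 4 exposed arrays lay wholly below the 4 Non-exposed ones, against 1.35% of all probe sets, and in 0 wholly above, against 0.643%. These were NRG4 probe set 11737657_a_at and EREG probe set 11763822_at. Nothing is read from these counts, since the contrast chose the genes. The median absolute difference was 0.07 over the 39 probe sets and 0.07 over all.

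**Figure D1:**
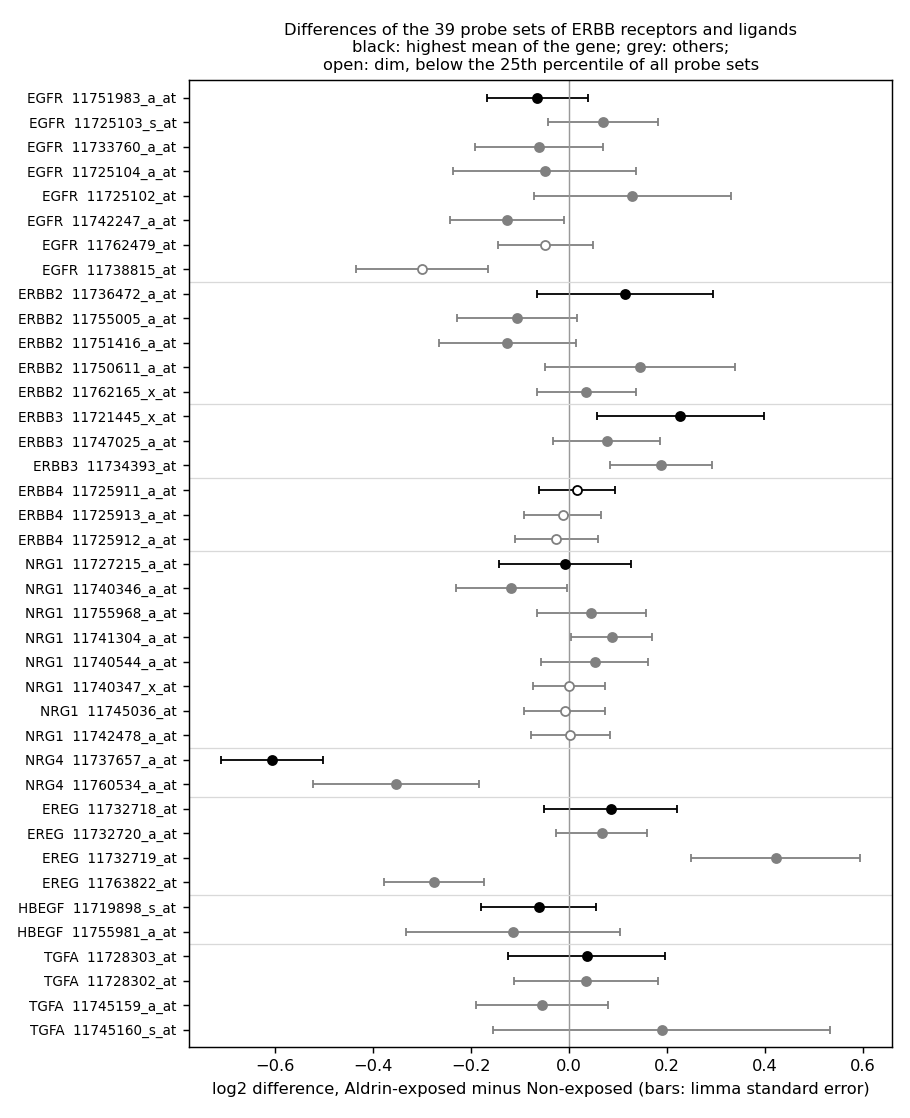
Each point is the log2 difference between the mean of 4 Aldrin-exposed and 4 Non-exposed arrays for 1 of the 39 probe sets, with bars of 1 limma standard error. Black points are the probe set of highest mean of each gene, grey points the others, and open points are dim. NRG4 lies farthest to the left at -0.61 and -0.35, and the probe sets of EREG spread from -0.28 to 0.42.

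NRG4 and EREG are therefore also shown as DNA. The 250 bases before the annotated start are printed 5′ to 3′ on the strand of the gene, from RefSeq (GRCh38.p14), with TATAAA, the TATA box, in capitals. The NRG4 stretch is chr15:76012425-76012674 on the minus strand, and its start lies inside the annotated span of the gene and not at its outer end. The EREG stretch is chr4:74364895-74365144 on the plus strand, directly before the outer end of the gene.
NRG4: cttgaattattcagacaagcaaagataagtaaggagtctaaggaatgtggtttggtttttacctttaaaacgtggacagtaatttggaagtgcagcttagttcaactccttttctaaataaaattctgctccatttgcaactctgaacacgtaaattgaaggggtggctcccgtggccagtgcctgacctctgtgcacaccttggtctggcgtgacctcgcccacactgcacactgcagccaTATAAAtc
EREG: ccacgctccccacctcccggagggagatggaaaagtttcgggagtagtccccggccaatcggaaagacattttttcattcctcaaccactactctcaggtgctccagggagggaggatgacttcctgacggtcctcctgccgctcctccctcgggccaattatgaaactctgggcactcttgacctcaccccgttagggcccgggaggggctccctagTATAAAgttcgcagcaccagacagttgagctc
In NRG4 the TATAAA begins 8 bases before the start, closer than where a TATA box usually lies, and in EREG it begins 32 bases before. TATAAA was found in 4 of the 10 promoter stretches used here, and in 10.7% of 35116 promoters of the same length. The 10 stretches covered 8 of the members, AREG included, and none was used for NRG1 and ERBB3. Searched on both strands beside it were the cAMP response element TGACGTCA (1.65% of promoters), the AP-1 site TGANTCA (6.57%), the GC box GGGCGG (42.6%), the EGR site GCGTGGGCG (0.72%), whose last letters overlap a GC box where a further G follows, and the CArG box (1.16%), and none of them was found in the NRG4 or the EREG stretch. The HBEGF stretch held the GC box 5 times and the first of the 2 TGFA stretches 3 times, counting both strands. Nothing was measured at these promoters, and a match is a description of the letters only.

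EGFR, the receptor of EREG, HBEGF and TGFA, was covered by 8 probe sets, of which 6 had a lower and 2 a higher mean in exposed cells. Its brightest, 11751983_a_at, read 12.16, 11.85, 12.30 and 12.05 in exposed replicates 1 to 4 and 12.13, 12.27, 12.09 and 12.13 in Non-exposed replicates 1 to 4. The groups overlapped fully, with exposed replicates 2 and 3 as the lowest and highest of the 8, and the means of 12.09 ± 0.19 and 12.15 ± 0.08 (SD, n = 4) differed by -0.06 (standard error 0.10). The other 7 probe sets differed by -0.30 to 0.13. The 0.13, of 11725102_at, became -0.02 with the GC index. The -0.30 belonged to 11738815_at, which is dim, with 5.34 to 5.60 in exposed and 5.47 to 6.08 in Non-exposed arrays.

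ERBB2, the receptor that pairs with the other three, had 5 probe sets with differences of -0.13 to 0.14, 2 lower and 3 higher in exposed cells. Its brightest, 11736472_a_at, read 10.02, 9.66, 10.42 and 10.22 in exposed and 9.68, 10.20, 9.80 and 10.18 in Non-exposed arrays, a difference of 0.11 (standard error 0.18). Exposed replicates 2 and 3 were again the lowest and highest of the 8, and the Non-exposed arrays lay between them in a lower and a higher pair.

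ERBB3, the receptor of the neuregulins that leans on ERBB2 for its signal, had a higher mean in exposed cells at each of its 3 probe sets, by 0.23, 0.19 and 0.08, all with overlap. The brightest, 11721445_x_at, read 8.91, 9.62, 8.73 and 9.03 in exposed and 8.90, 8.72, 8.86 and 8.90 in Non-exposed arrays. A single array set this difference: exposed replicate 2 was the highest of the 8 by a wide margin, and without it 0.23 became 0.05. That array stood apart in its hybridisation controls and its ACTB 3′ to 5′ difference, though not in that of GAPDH. The part of these controls in the ERBB3 difference was not tested. In the manufacturer's naming, _x_at marks a probe set with probes similar to other sequences. ERBB4, the other neuregulin receptor, was dim at all 3 of its probe sets, with a mean of 4.78 ± 0.04 in exposed against 4.76 ± 0.11 in Non-exposed arrays (SD, n = 4) at the brightest, and differences of -0.03 to 0.02.

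The neuregulins went apart. NRG1, the ligand of ERBB3 and ERBB4, had 8 probe sets, 3 of them dim, with differences of -0.12 to 0.09 and 4 in each direction. The brightest, 11727215_a_at, read 6.89, 6.92, 6.70 and 6.39 in exposed and 6.70, 6.89, 6.83 and 6.50 in Non-exposed arrays. Replicate 4 was the lowest of both groups, and the difference was -0.01 (standard error 0.13). The mean over the 8 arrays, 6.73, lay within the 6.54 to 7.75 of the 3 endothelial markers.

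NRG4, a ligand of ERBB4, showed the largest difference of the 39 probe sets. At 11737657_a_at the exposed arrays read 6.79, 7.11, 6.86 and 7.15 and the Non-exposed arrays 7.46, 7.55, 7.70 and 7.63. Every exposed array was below every Non-exposed one, with a gap of 0.31 between the closest pair. The means were 6.98 ± 0.18 and 7.58 ± 0.10 (SD, n = 4), a difference of -0.61 (standard error 0.10), so that exposed cells held 65.7% of the Non-exposed intensity, and with the GC index in the fit the difference was -0.60. Of all probe sets, 60 (0.122%) differed by as much or more in the lower direction. The mean of 11737657_a_at over the 8 arrays, 7.28, lay within the 6.54 to 7.75 of the 3 endothelial markers, and no detection calls were used. Whether the NRG4 transcript was present above background was not tested.

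The second NRG4 probe set, 11760534_a_at, also had the lower mean in exposed cells, but with overlap. It read 6.37, 6.38, 6.72 and 5.98 in exposed and 6.62, 6.70, 6.47 and 7.06 in Non-exposed arrays, a difference of -0.35 (standard error 0.17) that became -0.46 with the GC index. Exposed replicate 3 lay above Non-exposed replicates 1, 2 and 3, and it is this array alone that made the groups overlap. Within groups the 2 probe sets did not move together: their deviations from the group means correlated at -0.44 over the 8 arrays, as a description. The receptor of NRG4, ERBB4, was dim, as given above.

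**Figure D2:**
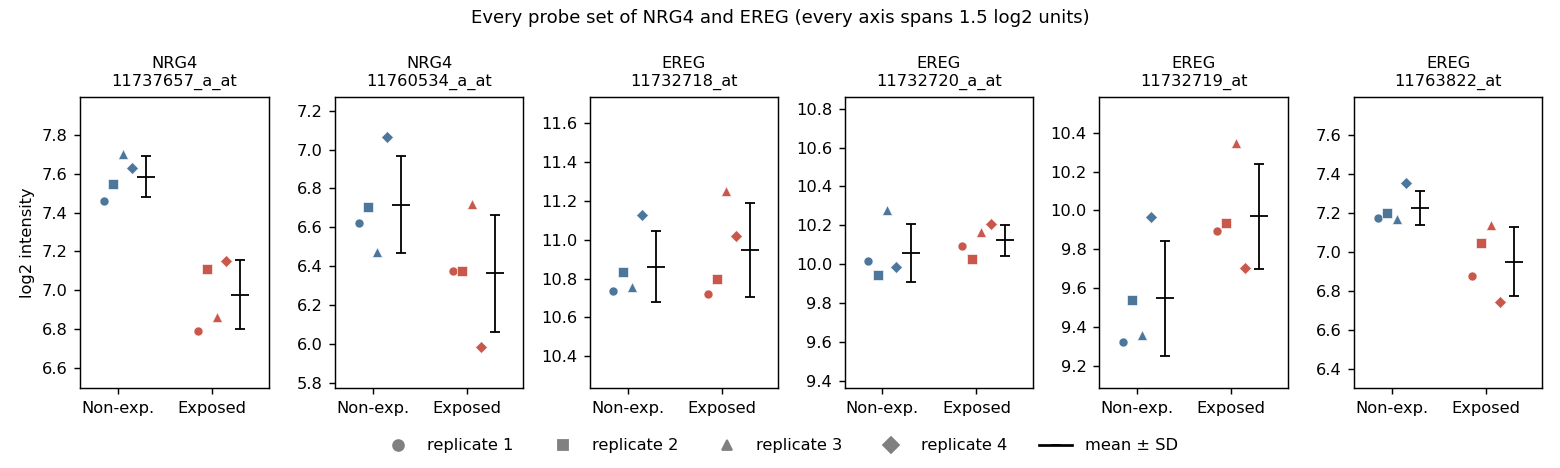
Log2 intensity at the 2 NRG4 and 4 EREG probe sets, 1 point per array with a symbol per replicate number (blue, Non-exposed; red, Aldrin-exposed) and the mean ± SD of 4 arrays beside them. The groups separate at NRG4 11737657_a_at (closest arrays 7.15 and 7.46) and barely at EREG 11763822_at (7.14 and 7.17), while EREG 11732719_at points the other way.

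Over the 8 arrays the probe sets whose values were most like those of NRG4 11737657_a_at were KRTAP5-7 (Pearson r = 0.97), a keratin-associated protein, CNTLN (0.97), the centrosomal protein centlein, EPB41L2 (0.96), a membrane skeleton protein, PAQR9 (0.95) and SHC4 (0.95), an SHC adaptor. In all 5 every exposed array was below every Non-exposed one, with differences of -0.20 to -0.11, smaller than that of NRG4. Since these values hold the difference between the groups, likeness of this kind comes largely from it. The second NRG4 probe set had an r of 0.41 with the first and ranked 6098 by that measure.

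EREG, epiregulin, a ligand of EGFR and ERBB4, had 4 probe sets that did not point one way. The brightest, 11732718_at, read 10.72, 10.80, 11.25 and 11.02 in exposed and 10.73, 10.83, 10.76 and 11.13 in Non-exposed arrays, a difference of 0.08 (standard error 0.14). The groups overlapped, with exposed replicate 3 and Non-exposed replicate 4 on top, and 11732720_a_at likewise differed by 0.07.

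At 11732719_at EREG read 9.89, 9.93, 10.35 and 9.70 in exposed and 9.32, 9.54, 9.36 and 9.97 in Non-exposed arrays. The exposed mean was higher by 0.42 (standard error 0.17, and 0.31 with the GC index), and only Non-exposed replicate 4 reached into the exposed range. At 11763822_at EREG read 6.88, 7.05, 7.14 and 6.74 in exposed and 7.17, 7.20, 7.17 and 7.36 in Non-exposed arrays, a difference of -0.28 (standard error 0.10). Here the groups did not overlap, yet the closest arrays were only 0.03 apart and a second quantile normalization closed that gap. Both of these probe sets had Non-exposed replicate 4 as the highest of its group, and their deviations within groups correlated at 0.87. The arrays were thus ordered alike within groups while the groups differed in opposite directions. The mean of 11763822_at over the 8 arrays was 7.09, against 9.76 for 11732719_at. That 7.09 lay within the 6.54 to 7.75 of the 3 endothelial markers, so 11763822_at was not shown to be detected.

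HBEGF, the heparin-binding ligand of EGFR and ERBB4, differed by -0.06 and -0.11 at its 2 probe sets, and by -0.02 and 0.02 with the GC index. The brighter, 11719898_s_at, read 10.76, 11.01, 10.66 and 11.13 in exposed and 11.09, 10.80, 10.99 and 10.93 in Non-exposed arrays, so that the exposed arrays held both the highest and the lowest value. TGFA, transforming growth factor alpha, a ligand of EGFR, read 10.68, 10.82, 10.44 and 10.69 in exposed and 10.98, 10.59, 10.74 and 10.19 in Non-exposed arrays at its brightest probe set, 11728303_at. The difference was 0.04 (standard error 0.16), and the spread lay in the Non-exposed cells, where replicates 1 and 4 were the highest and lowest of all.

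The 3 other TGFA probe sets differed by -0.05 to 0.19. The 0.19 came from 11745160_s_at, which read 7.82, 7.30, 8.81 and 7.81 in exposed and 7.35, 8.06, 7.22 and 8.35 in Non-exposed arrays. Its standard deviation within groups was 0.59, higher than that of 99.4% of all probe sets, and the difference was far inside it and became 0.02 with the GC index. The TGFA probe sets also disagreed on which arrays were high: 4 of their 6 pairs had negative correlations of deviations within groups, from -0.84 up to 0.88 over all 6.

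**Figure D3:**
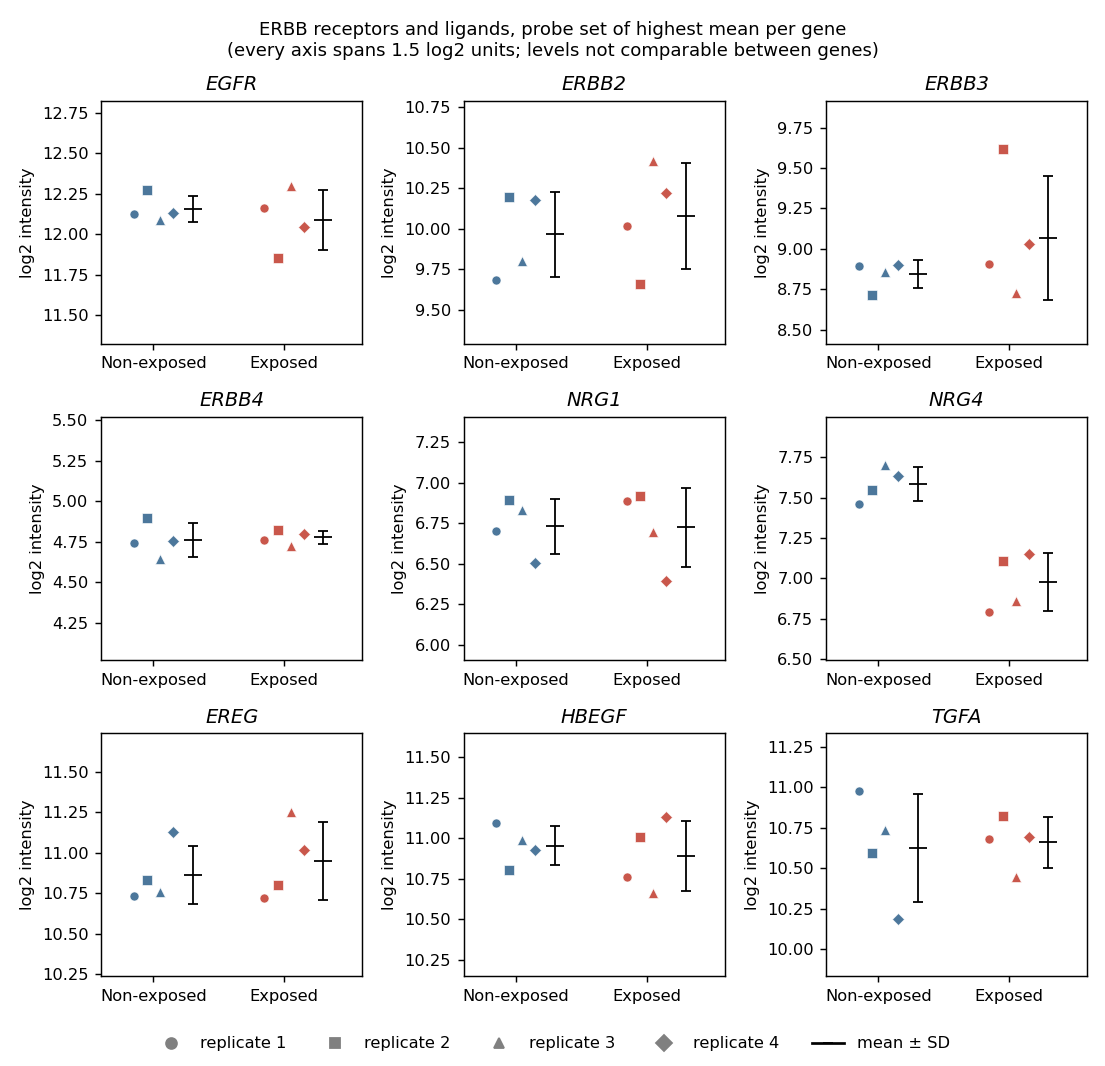
Log2 intensity of the 9 measured genes at the probe set of highest mean, 1 point per array (blue, Non-exposed; red, Aldrin-exposed; symbols give the replicate number) and the mean ± SD of 4 arrays. Every axis spans the same range but starts elsewhere, so levels cannot be compared between genes. The groups separate for NRG4 (6.79 to 7.15 against 7.46 to 7.70) and overlap for the other 8 genes, with ERBB3 spread by exposed replicate 2 at 9.62.

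At these probe sets the spread within groups was not shared evenly among the arrays. The same count was not made over all probe sets, so this is not shown to be particular to the ERBB genes. Of the 31 probe sets that were not dim, exposed replicate 3 was the highest of its group in 17 and exposed replicate 2 the lowest in 12, while Non-exposed replicate 4 was the highest in 14 and Non-exposed replicate 1 the lowest in 10. EGFR and ERBB2 carried much of this: the deviations of EGFR 11733760_a_at and 11725104_a_at correlated at 0.96, and those of ERBB2 11736472_a_at and 11750611_a_at at 0.96. For EGFR 6 of 28 pairs of its probe sets correlated below 0, for ERBB2 0 of 10, for NRG1 7 of 28 and for ERBB3 2 of 3. The median standard deviation within groups was 0.17 over the 39 probe sets and 0.16 over all. The deviations of the GC index ran from -0.29 to 0.32, and those of the probe sets correlated with them at -0.77 to 0.79 over the 8 arrays, as a description. The correlation was -0.77 for EGFR 11725103_s_at, -0.75 for EREG 11763822_at, 0.75 for TGFA 11745159_a_at, 0.70 for ERBB2 11755005_a_at and 0.05 for NRG4 11737657_a_at. The part of the index in the spread was not tested.

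**Figure D4:**
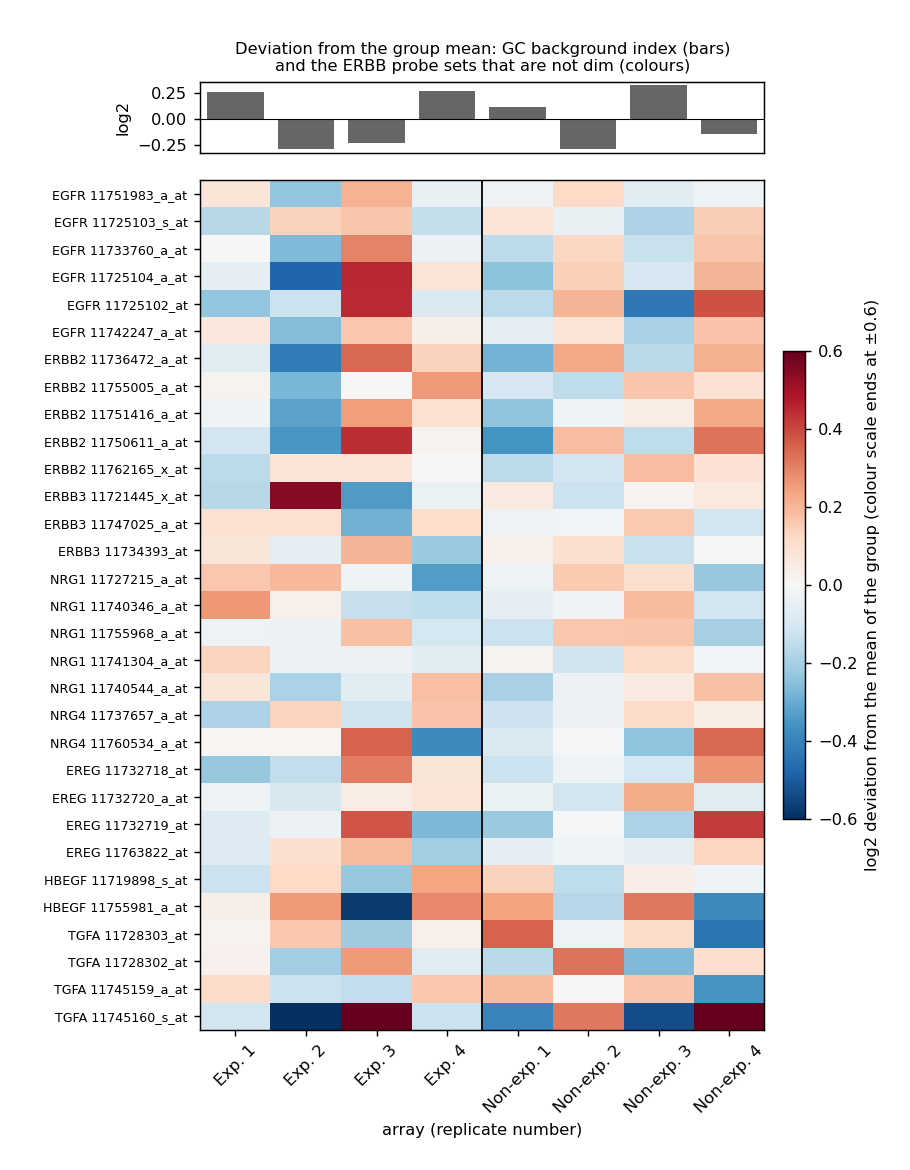
Colours give the log2 deviation of each array from the mean of its own group for the 31 probe sets that were not dim, red above and blue below, with the scale ending at 0.6 on either side. Bars give the same deviation for the GC background index. Exposed replicate 3 and Non-exposed replicate 4 are red along most EGFR and ERBB2 rows and blue for both HBEGF probe sets and 2 of the 4 of TGFA.

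Whether the EGFR ligands went up and down together within groups was tested on the deviations at the brightest probe set of each gene, which do not hold the difference between the groups. The 3 pairs were compared over 8 arrays by an exact permutation test of all pairings within groups, two-sided, with Benjamini-Hochberg adjustment over the 3. EREG and TGFA ran in opposite directions (Pearson r = -0.80, exact p = 0.0122, adjusted 0.0365; Spearman rho = -0.67, exact p = 0.0625, adjusted 0.0938). This rested on exposed replicate 3 and Non-exposed replicate 4, without which r was -0.33, and with the mean of all probe sets of each gene r was 0.39. HBEGF and TGFA had r = 0.52 (exact p = 0.127, adjusted 0.190) and rho = 0.71 (exact p = 0.0625, adjusted 0.0938), with r = 0.54 without the 2 arrays farthest from the median and -0.73 with the mean of the probe sets. EREG and HBEGF had r = -0.29 (exact p = 0.559, adjusted 0.559) and rho = -0.29 (exact p = 0.573, adjusted 0.573), and r was 0.48 without the same 2 arrays as for EREG and TGFA and -0.79 with the mean of the probe sets.

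Around the receptors and ligands, 63 genes of the pathway in 5 lists were read at their probe set of highest mean. Of these 57 were measured and 6 had no probe set named here. In limma 0 of the 57 passed an adjusted p of 0.05, as did 0 of 18132 genes (0%), and 3 had an unadjusted p under 0.05, all lower in exposed cells (5.26%, against 1.59% of all genes) and 0 higher (against 1.17%). A lower mean in exposed cells was found in 30 of the 57 (52.6%, against 54.2% of all genes), and the median difference was -0.02 over the 57 and -0.01 over all genes. Nothing is read from these counts, since the lists were chosen with earlier results of these data known.

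The ERK response genes, transcribed or kept up when ERK is active, held all 3. DUSP6, the phosphatase that switches off ERK, read 8.01, 7.97, 8.19 and 8.25 in exposed and 8.31, 8.37, 8.47 and 8.80 in Non-exposed arrays. The groups did not overlap, as in 1.22% of all genes in that direction, and the means of 8.11 ± 0.14 and 8.49 ± 0.22 (SD, n = 4) differed by -0.38 (standard error 0.12, adjusted p = 1.00 in limma). All 4 DUSP6 probe sets had a lower exposed mean, with differences of -0.38 to -0.26, but only at this 1 did the groups not overlap. JUN and FOS, which form the AP-1 factor, differed by -0.29 (standard error 0.13) and -0.33 (standard error 0.14) with overlap, and 4 of 4 probe sets of each had the lower mean.

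FOS and EGR1 were named after their values were seen. EGR1, a zinc finger factor induced early by ERK, read 10.95, 10.99, 11.65 and 13.02 in exposed and 11.83, 12.29, 12.76 and 13.38 in Non-exposed arrays, with differences of -2.22 to -0.91 at its 6 probe sets. At the brightest probe set, whose values these are, exposed replicate 4 reached the Non-exposed range. The exposed spread there of 0.97 (SD, n = 4) was as large as the difference of -0.91, the smallest of the 6. The groups overlapped at all 6. The list did not move as 1: of its 17 genes 11 had a lower and 6 a higher mean, with a median of -0.08. SPRY2, an inhibitor of the same route also named after its value was seen, differed by 0.41 (standard error 0.20) at its 1 probe set. SPRY4, named likewise, differed by -0.41 (standard error 0.28) and had the lower mean at all 3 of its probe sets.

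In the other lists no gene reached an unadjusted p of 0.05. All 5 further ligands had a lower mean, with a median of -0.08, but 3 of them were dim. NRG2 differed by -0.18 (standard error 0.15) and EPGN, a dim one, by -0.10 (standard error 0.08). Among the sheddases and their regulators 5 of 6 had a higher mean, but with a median of only 0.02. ADAM17, which releases TGFA, EREG and HBEGF, differed by 0.27 (standard error 0.26). Its 4 probe sets ran from -0.21 to 0.27, and 2 of them had the lower mean in exposed cells. RHBDF1, a partner of ADAM17, differed by -0.15 (standard error 0.10).

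Of the adaptors and signal carriers 17 were measured, 7 with a higher and 10 with a lower mean and a median of -0.04. The phospholipase PLCG1 differed by -0.20 (standard error 0.10) and the PI3-kinase subunit PIK3R1 by -0.13 (standard error 0.08). Of the 12 receptor inhibitors and turnover genes 9 had a higher and 3 a lower mean, with a median of 0.04. Lowest were LRIG2 at -0.17 (standard error 0.08) and LRIG1, which promotes the breakdown of ERBB receptors, at -0.16 (standard error 0.09).

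**Figure D5:**
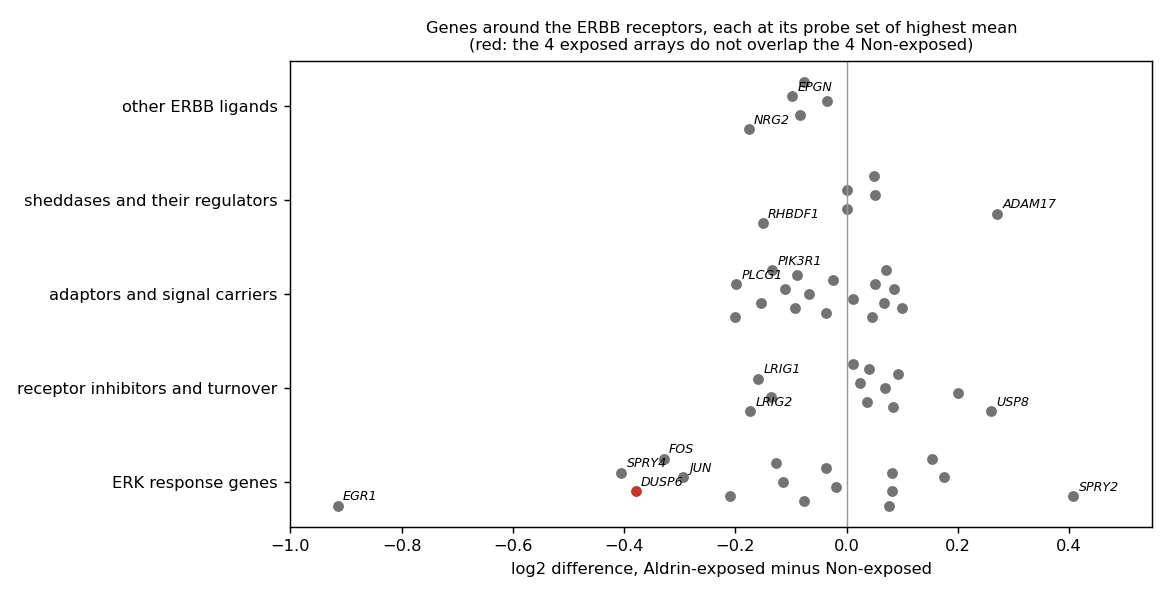
Each point is the log2 difference between Aldrin-exposed and Non-exposed means of 4 arrays for 1 of the 57 measured pathway genes, in 5 lists, with vertical position within a list set only for legibility. The points of 4 lists stay between -0.20 and 0.27, and those of the ERK response genes run from EGR1 at -0.91 to SPRY2 at 0.41, with DUSP6 in red as the one gene whose groups do not overlap.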

How the data were processed

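RNA of 4 Aldrin-exposed and 4 Non-exposed samples of DU145 cells had been hybridised to 1-colour Affymetrix arrays. For each probe set the deposited value is a log2 intensity, which the authors made with RMA per the submitters' processing notes (version not given in the sources used here). This method subtracts background, brings the arrays to one distribution by quantiles and combines the probes of a set, so a shift common to a whole array is removed. Array medians ran from 8.05 to 8.10, and 0 value columns were unused.

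Of 49395 probe sets, 102 controls were left out. The platform's annotation named 1 gene for 44988 of the 49293 probe sets, several for 1832 and none for 2473, and no probe set named a member together with another gene. The members and lists were chosen with earlier results of these data known. For members the exposed against Non-exposed contrast got no test. Other genes were tested with limma 3.58.1 under R 4.3.3 (two-sided moderated test of lmFit with eBayes, p-values adjusted by Benjamini-Hochberg over all probe sets, threshold 0.05). Pathway genes were read at their probe set of highest mean, with the p-value adjusted over all probe sets. Groups were taken not to overlap when every array of one lay below every array of the other. Dim probe sets were those below the 25th percentile of mean intensity, since no detection calls were used.

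Named were all members and, from each pathway list, the 2 genes of smallest p, others being marked as chosen after their values were seen. Correlations of deviations from the group mean were tested by exact permutation. Alternatives were the variance model, array weights, a t-test with unequal variances, a block for the replicate number, leaving out dim probe sets, median centring, a second quantile normalization, the mean of the probe sets of a gene and each array left out in turn. A GC background covariate was a later addition, made once the values were known. The limma step was tested on simulated data. Python 3.11.15 with numpy 2.4.6, pandas 2.3.3 and matplotlib 3.10.9 was used. The number of arrays limits the precision.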

Additional observations from a re-analysis of the deposited data

Results flagged for a closer look

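In 5 of the 78 groups of 4 arrays (39 probe sets in both conditions), 1 array lay far from the other 3 by Dixon's ratio of gap to range, where chance gives about 1 group in 20. At ERBB3 11747025_a_at exposed replicate 3 read 8.04 and the nearest other exposed array 8.42 (ratio 0.956). At NRG1 11745036_at and 11741304_a_at exposed replicate 1 was the highest, at 5.11 with the next at 4.90 (0.966) and at 6.18 with the next at 6.01 (0.83). At EGFR 11762479_at exposed replicate 2 read 5.89 and the next 5.67 (0.88). At EREG 11763822_at Non-exposed replicate 4 read 7.36 and the next 7.20 (0.832).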

How the results depend on the processing

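Over all probe sets the 1 past an adjusted p of 0.05 fell to 0 with the GC background covariate and with the t-test with unequal variances, and to between 0 and 1 when 1 array was left out. The 1515 at an unadjusted p under 0.05 became 2505 with array weights, 996 without dim probe sets, and 1058 to 2811 with 1 array left out, the highest without Non-exposed replicate 4. With the replicate number as a block the counts were 0 and 912. Same-numbered arrays of the 2 groups did not deviate together (r = 0.31, -0.34, -0.72 and -0.08 for numbers 1 to 4). The labels do not say whether the number pairs them, and these values cannot settle it. Of the ERBB probe sets, 2 were without overlap. A second quantile normalization left 1, that of NRG4, and leaving out 1 array gave 2 to 6, the 6 without exposed replicate 3, which then included both NRG4 probe sets, 2 of ERBB3 on the higher side and EGFR 11738815_at. The NRG4 difference ran from -0.66 to -0.48, the latter as the mean of both probe sets. The difference of EGFR, ERBB4, EREG, HBEGF, NRG1 and TGFA crossed 0 under some alternatives, within their spread between replicates. The 3 pathway genes at an unadjusted p under 0.05 became 6 with the mean of the probe sets and 1 to 4 with 1 array left out, the 1 without exposed replicate 2. For the ligand pairs, the mean of the probe sets turned r from -0.80 to 0.39 for EREG and TGFA and from 0.52 to -0.73 for HBEGF and TGFA. Leaving out 1 array, r ran from -0.90 to -0.67 for EREG and TGFA, past the threshold in 2 of 8 cases, from -0.58 to 0.22 for EREG and HBEGF, above 0 only without exposed replicate 3, and from 0.39 to 0.77 for HBEGF and TGFA. The cause was not tested.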
